A study of Mus musculus with 13 samples.

Results

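The genes described are 9 of the 32285 genes counted: Mbp, Mobp, Mal, Pllp, Opalin, Mag, Mog, Cnp and Cldn11, taken by symbol from a list of myelin genes. The rule uses no measured value, but the list was drawn up with earlier results of these data known. Nuclei of whole frozen hippocampus from 13 female mice were profiled by single-nucleus RNA sequencing (10x Genomics droplets), with 1 library per mouse. The mice were an F1 hybrid, written C3HB6F1 in the sample labels and C3B6F1 in the design text. The groups were young mice of 5 months fed ad libitum (young AL, n = 3), old mice of 24 months fed ad libitum (old AL, n = 3), mice of 24 months restricted in diet from 20 months of age (acute DR, n = 3) and mice of 24 months restricted from 5 months of age (long-term DR, n = 4). The labels name no transgene or mutation, and the tissue was the whole hippocampus in every group.

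Myelin is the stack of oligodendrocyte membrane that wraps axons. It forms when a dividing precursor commits, leaves the cell cycle and turns on a set of structural genes, which mature oligodendrocytes keep on for life. Mbp encodes myelin basic protein, which holds the inner faces of compact myelin together, and Mobp encodes a small basic protein of the same layers. Mal and Pllp (plasmolipin) encode proteolipids that sort myelin lipids and proteins to the membrane, and Opalin encodes a sialylated membrane protein of mature oligodendrocytes. Mag lies on the wrap that touches the axon, Mog on the outermost wrap, Cnp in the cytoplasm of the non-compact wraps, and Cldn11 builds the tight junctions between wraps. Counts from nuclei report newly made and retained nuclear RNA. A large part of Mbp mRNA is carried into the processes in the living cell and is not counted here.

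The genes lie on 9 different chromosomes (GENCODE vM21, GRCm38) and span from 12.7 kb (Mog, chr17:37010743-37023398) to 110 kb (Mbp). Opalin is at chr19:41061710-41077113 and Pllp at chr8:94674894-94696278, both on the minus strand. Pllp overlaps Gm45767 and Cnp overlaps Dnajc7 on the opposite strand, and since the use of strand in counting is not given in the sources used here, reads of such partners could not be told apart. Longer genes yield more counts from unspliced nuclear RNA, so levels are compared within a gene and not between genes.

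After filtering, 98041 nuclei remained, and library totals ranged from 38546292 to 80538090 UMIs (unique molecules counted). Pairs of libraries shared 3 to 40 barcodes, at most 0.473% of the smaller library. Clusters were named from marker lists that held none of the 9 genes. Oligodendrocyte-like nuclei numbered 10009 (median 1885 UMIs) and precursor-like nuclei 2963 (median 3387 UMIs). The 4 libraries numbered 1, with 1 in each group, stood apart: 0.609% to 3.22% of their nuclei were oligodendrocyte-like, against 7.99% to 22.8% in the other 9 libraries. Summed oligodendrocyte-like nuclei per library ranged from 47 (young AL replicate 1) to 1652, and the 9 genes together contributed 877 to 23062 UMIs.

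Each of the 9 genes had its highest level among the named classes in oligodendrocyte-like nuclei. Mog, Opalin, Mag and Mobp lay mostly in them, with 93.1%, 91.2%, 90.7% and 90.1% of each gene's UMIs over all 98041 nuclei. The share was 83.8% for Cldn11 and 78.0% for Mal. It was 58.3% for Mbp, of which 17.9% of UMIs lay in the far more numerous granule-like neurons. It was 55.8% for Pllp, with 24.9% in precursor-like nuclei, and 41.6% for Cnp, with 20.1% in granule-like neurons.

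**Figure D1:**
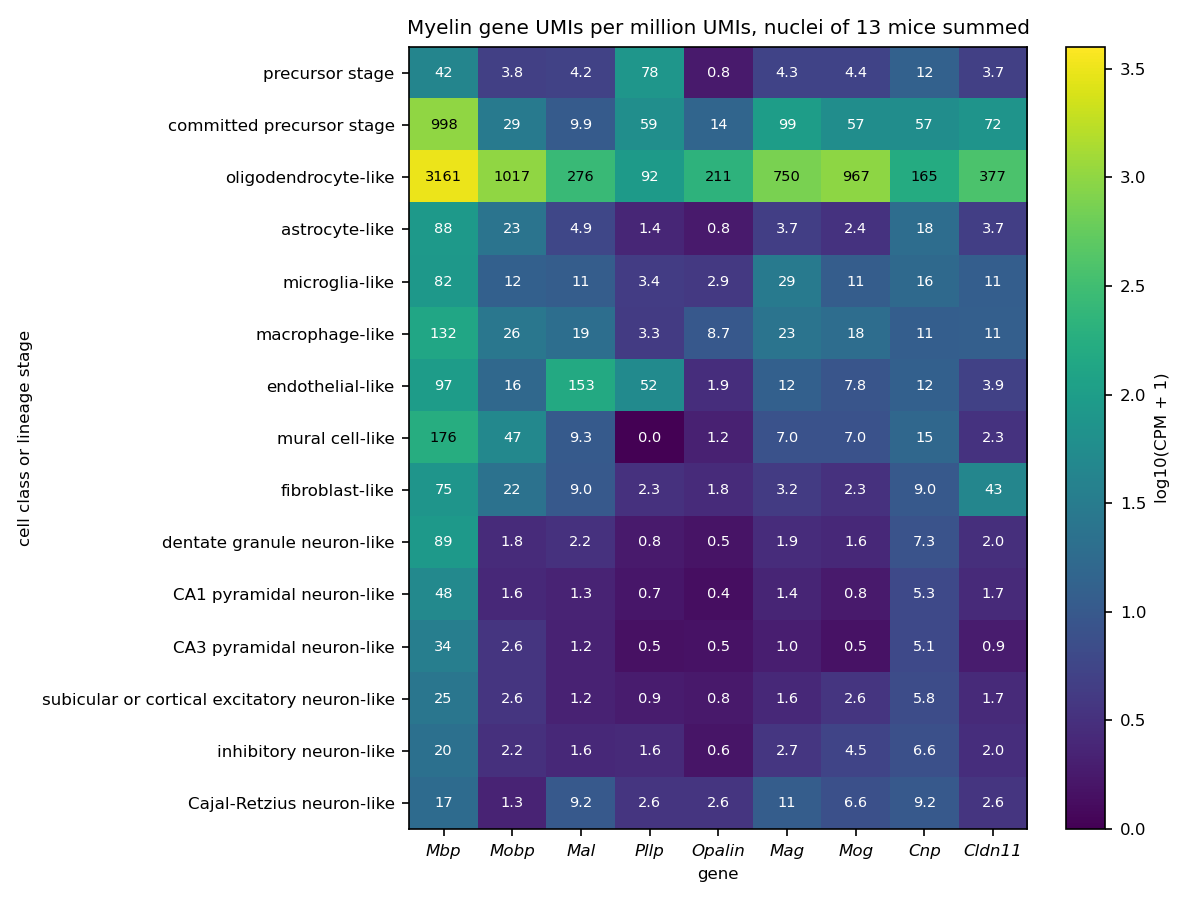
Counts per 1000000 UMIs (CPM) of the 9 genes (columns) in lineage stages and marker-named classes (rows), with the nuclei of 13 mice summed; the colour is log10(CPM + 1) and each cell prints the CPM. The oligodendrocyte row holds the highest value of every column, Pllp is at 78 in precursors and 92 in oligodendrocytes, and Mal is at 153 in endothelial-like nuclei.

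Along the lineage, the pooled levels of 8 of the 9 genes were lowest in the precursor stage and highest in oligodendrocyte-like nuclei. Sub-clustering of the 12972 nuclei of both classes gave a precursor stage (2824 nuclei) and a small committed stage (143 nuclei from 13 libraries, with raised Bmp4, Enpp6 and Gpr17 among 8 of 8 commitment markers). Mbp was at 42.1 CPM in the precursor stage, 998 CPM in the committed stage and 3161 CPM in oligodendrocyte-like nuclei. Nuclei with at least 1000 UMIs were thinned to 1000 UMIs, and the others were left out of such shares, here and below. A Mbp UMI was then found in 3.88% (exact 95% interval 3.19% to 4.66%), 44.1% (35.8% to 52.6%) and 94.1% (93.6% to 94.6%) of the nuclei kept in these stages. The interval covers counting error only. In inhibitory neurons the same share was 1.78%, at a median of 8290 UMIs before thinning.

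Over the same stages Mag was at 4.25, 99.5 and 750.4 CPM, Cldn11 at 3.75, 71.9 and 377 CPM, Mog at 4.36, 57.1 and 967 CPM and Cnp at 12.1, 57.1 and 165 CPM. In the committed stage Mbp thus stood at 31.6% of its oligodendrocyte level and Cnp at 34.7%, whereas Mobp stood at 2.81% (28.6 CPM of 1017), Mal at 3.57% (9.85 of 276) and Opalin at 6.54% (13.8 of 211). The committed stage rests on 10 Mal UMIs, 14 Opalin UMIs and 29 Mobp UMIs, and 1 library held at least 20 of its nuclei, so these levels are descriptions without a test.

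Pllp went another way. Its level was 77.6 CPM in the precursor stage, 59.1 CPM in the committed stage and 92.0 CPM in oligodendrocyte-like nuclei, and at 1000 UMIs a Pllp UMI was found in 7.54%, 6.29% and 8.46% of nuclei. Astrocyte-like nuclei had 1.41 CPM and neurons 0.450 to 1.65 CPM, so the level in precursors lay far above that of the other classes of the same libraries, endothelial-like nuclei excepted (51.7 CPM). Precursor-like Pllp ranged over the 13 mice from 47.3 to 143 CPM.

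Outside the lineage, several genes had a level well above that in neurons. Mal reached 153 CPM in endothelial-like nuclei, which was 65.4 to 267 CPM over the 9 libraries with enough nuclei, against 1.23 to 2.23 CPM in neurons. Pllp reached 51.7 CPM in the same nuclei, with 28.4 to 97.1 CPM over these libraries. Cldn11 reached 43.3 CPM in fibroblast-like nuclei, against 0.901 to 2.05 CPM in neurons. Mbp was at 89.0 CPM in granule-like, 47.9 in CA1-like, 33.7 in CA3-like and 20.3 in inhibitory-like nuclei. It was at 97.5 CPM in endothelial-like, 132 in macrophage-like and 176 in mural cell-like nuclei. In astrocyte-like nuclei the pooled level was 88.3 CPM, but the median over the 13 libraries was 31.7 CPM (20.0 to 294), against a median of 92.2 CPM in granule-like neurons (62.0 to 124). The part of free RNA in these levels was not tested. Oligodendrocyte-like nuclei held 3.27 Mbp UMIs for each Mog UMI, granule-like nuclei held 56.2 (19498 against 347), astrocyte-like nuclei 36.7 and inhibitory-like nuclei 4.54. The Mbp gene model also contains the long golli transcripts, which are known in neurons, and counts per gene do not separate them from the classic myelin transcripts.

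Among the 9 genes, Opalin was the one whose pooled level differed most between sub-clusters of oligodendrocyte-like nuclei. Of 6 sub-clusters found without the 9 genes, 5 held over 1000 nuclei each, and over these the highest level divided by the lowest was 4.17 for Opalin (86.4 to 360.3 CPM). The same ratio was 1.67 for Mal, 1.55 for Pllp, 1.48 for Cldn11, 1.41 for Cnp and 1.18 to 1.36 for Mag, Mbp, Mobp and Mog. Sub-cluster 3 (2060 nuclei, led by Enpp6, Cldn14 and Slc5a11) had the lowest Opalin, 86.4 CPM, beside 3366 CPM of Mbp and 1037 CPM of Mog, both near the top of their ranges. At 1000 UMIs an Opalin UMI was found in 7.20% of its nuclei and in 28.2% of those of sub-cluster 2. These levels pool the mice of all groups. In single libraries with at least 20 nuclei of the sub-cluster, Opalin was at 17.2 to 170 CPM in sub-cluster 3 (11 libraries) and at 174 to 488 CPM in sub-cluster 2 (10 libraries). The sub-cluster 3 sum of acute DR replicate 1 held 29 nuclei and 58305 UMIs, so its Opalin value is near the floor of counting.

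**Figure D2:**
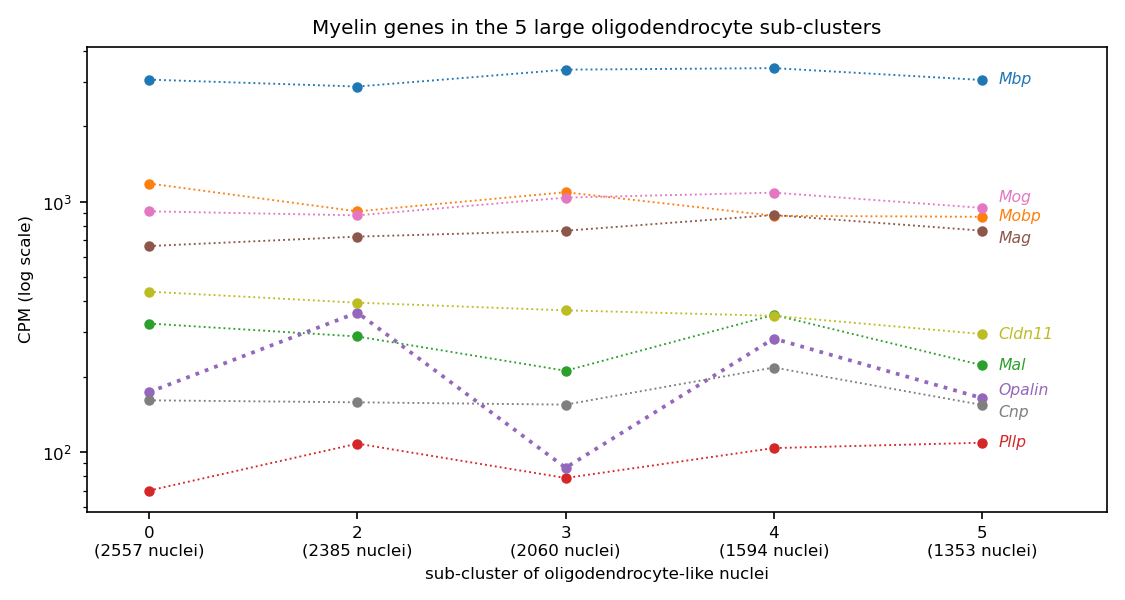
CPM (log scale) of each gene in the 5 sub-clusters with over 1000 nuclei, all mice summed; points are sums over nuclei and dotted lines join the points of a gene. Opalin moves from 86.4 in sub-cluster 3 to 360.3 in sub-cluster 2, and the other 8 lines are flatter.

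The sub-clusters were spread unevenly over the groups. Sub-cluster 0, led by Hif3a, Plin4 and Fkbp5 (genes known to respond to glucocorticoids), held 55.2% to 66.4% of oligodendrocyte-like nuclei in acute DR, 6.77% to 37.7% in long-term DR and 0.909% to 4.63% in old AL mice. Sub-cluster 2, the one with the highest Opalin of the 5, held 34.3% to 57.4% in old AL, 2.95% to 18.4% in acute DR and 4.73% to 55.0% in long-term DR mice. Sub-cluster 4 held 98.4% and 83.3% in young replicates 2 and 3 and 12.5% in young replicate 1. Sub-cluster 3 held 17.8% to 35.3% in each of the 10 old mice, and was thus well filled in each group compared for restriction. The remaining sub-cluster, of 56 nuclei led by Prom1, had 841 CPM of Opalin.

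The restricted mice were set against old AL mice, which had their age. In oligodendrocyte-like nuclei 2 of the 9 genes fell under both kinds of restriction, Opalin and Pllp, and none was called as higher. Under long-term DR 0.387% of the 11368 genes tested were called at an adjusted p below 0.05 (0.255% as lower), and under acute DR 1.99% (1.13% as lower). The 2 comparisons use the same 3 old AL libraries, so their results are not independent of each other. The median log2 fold change of the 9 genes was -0.25 under long-term and -0.040 under acute DR, against -0.0011 and -0.0053 over all genes tested. A level here is a share of the UMIs of these nuclei.

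Opalin was at 277, 287 and 326 CPM in old AL mice. It was at 98.6, 139 and 108 CPM in acute DR mice and at 185, 144, 192 and 128 CPM in long-term DR mice. Each of the 7 restricted mice lay below each old AL mouse, and neither group overlapped with old AL, which held for 8.87% of the genes tested under long-term and 18.1% under acute DR. The log2 fold change was -1.39 ± 0.16 (SE) under acute DR (edgeR adjusted p = 4.75e-06, 2.62-fold lower) and -0.92 ± 0.14 under long-term DR (edgeR adjusted p = 0.00132, 1.90-fold lower). By p-value it ranked 3 and 4 among the genes tested. At 1000 UMIs per nucleus, an Opalin UMI was found in 25.0% to 26.4% of old AL nuclei, 9.68% to 12.3% of acute DR nuclei and 12.2% to 17.9% of long-term DR nuclei.

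Pllp was at 186, 122 and 137 CPM in old AL mice. It was at 91.0, 73.1 and 46.8 CPM in acute DR and at 86.2, 57.6, 72.5 and 69.6 CPM in long-term DR mice. The 7 restricted mice again lay below the 3 old AL mice. The log2 fold change was -1.20 ± 0.21 under acute DR (edgeR adjusted p = 0.00113) and -1.06 ± 0.19 under long-term DR (edgeR adjusted p = 0.00873).

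Median depth moved with the groups: oligodendrocyte-like nuclei had medians of 1988 to 3169 UMIs in old AL, 1577 to 1890 in acute DR and 1673 to 2299.5 in long-term DR. The depths of old AL and acute DR libraries did not overlap, so acute DR and depth cannot be told apart, with or without a covariate. With this median as a covariate Opalin kept its call, at -1.24 and -0.85, but Pllp was at -0.92 under both (edgeR adjusted p = 0.130 for acute and 0.0508 for long-term DR). Leaving out long-term DR replicate 2 also ended the long-term call of Pllp (-0.94, edgeR adjusted p = 0.0681). Without the 4 libraries numbered 1, an analysis added after seeing the data, Opalin was at -1.31 and -0.96 and Pllp at -1.10 and -0.94 under acute and long-term DR, and these 4 values were called.

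**Figure D3:**
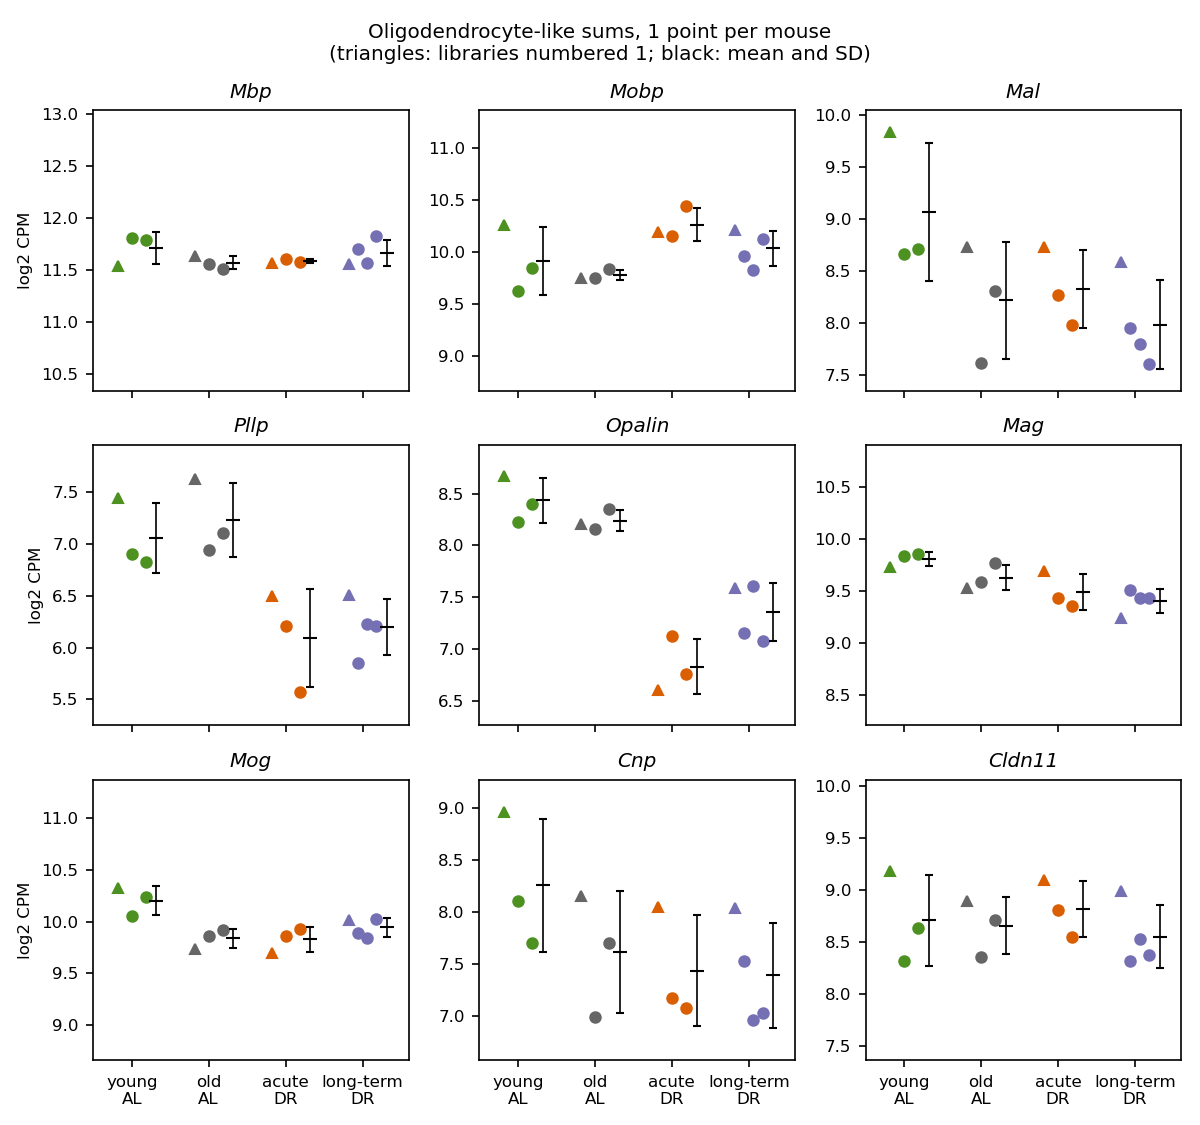
Log2 CPM of each gene in the oligodendrocyte-like nuclei of each mouse (points; triangles are libraries numbered 1) by group, with mean and SD in black; every panel spans the same number of log2 units. Opalin and Pllp of the 7 restricted mice lie below those of the 3 old AL mice, and Mbp varies least.

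The same comparisons were made within single sub-clusters, leaving out libraries with under 20 nuclei there. In sub-cluster 3 alone each of the 10 old libraries entered, acute DR replicate 1 with 29 nuclei. Opalin was at -1.93 under acute DR (edgeR adjusted p = 3.9e-07) and at -1.01 under long-term DR (edgeR adjusted p = 0.0071). Pllp was at -1.34 and -1.03 there, both called. Of 9509 genes tested in this sub-cluster, 129 were called under acute DR and 57 under long-term DR. In sub-cluster 5 alone, acute DR replicate 1 was left out with 12 nuclei. Both genes were called there under acute DR (-1.56 ± 0.30 for Opalin and -2.35 ± 0.43 for Pllp), with 18 of 6505 genes tested called. The acute DR side rests on replicates 2 and 3, with sums of 194743 and 127109 UMIs. Under long-term DR neither gene was called (-0.78 and -0.94, edgeR adjusted p = 0.0629 and 0.0755), with 13 of 6505 genes called. These fits were added after seeing the data.

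The 200 bases from 250 to 51 before the RefSeq start are shown for Opalin, Pllp, Mog and Mobp as examples (GRCm38.p6, gene strand, 5′ to 3′). Opalin and Pllp fell in the same comparisons, and Mog and Mobp did not. Capitals mark matches on either strand to ACAAAG or ACAATG (bound by SOX factors such as SOX10), CTGGCAC or CTGGTAC (a core bound by MYRF, the regulator of myelin genes) or CAGCTG (an E-box). The first is Opalin, chr19:41077164-41077363, minus strand, the second Pllp, chr8:94696293-94696492, minus strand, the third Mog, chr17:37023449-37023648, minus strand, and the last Mobp, chr9:120149492-120149691, plus strand.
Opalin: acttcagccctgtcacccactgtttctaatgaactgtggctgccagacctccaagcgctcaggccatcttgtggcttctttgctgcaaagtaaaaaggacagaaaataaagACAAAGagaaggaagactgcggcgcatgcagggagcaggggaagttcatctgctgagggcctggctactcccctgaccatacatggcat
Pllp: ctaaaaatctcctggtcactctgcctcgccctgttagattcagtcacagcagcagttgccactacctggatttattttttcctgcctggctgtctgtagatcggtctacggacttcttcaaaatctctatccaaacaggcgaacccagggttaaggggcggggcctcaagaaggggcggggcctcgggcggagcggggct
Mog: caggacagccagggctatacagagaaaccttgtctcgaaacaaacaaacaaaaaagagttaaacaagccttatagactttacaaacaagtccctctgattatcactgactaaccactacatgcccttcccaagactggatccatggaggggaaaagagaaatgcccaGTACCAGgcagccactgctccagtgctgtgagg
Mobp: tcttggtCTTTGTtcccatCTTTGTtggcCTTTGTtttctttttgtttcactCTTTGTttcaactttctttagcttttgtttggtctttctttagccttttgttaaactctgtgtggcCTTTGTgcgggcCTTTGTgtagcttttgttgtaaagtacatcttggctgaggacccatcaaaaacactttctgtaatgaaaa
The window of Opalin held 1 match, to ACAAAG, that of Pllp none, that of Mog 1, to CTGGTAC, and that of Mobp 6, all to ACAAAG. Of 32817 promoter windows of this length in the table, 13.6% held ACAAAG, 8.94% ACAATG, 3.34% CTGGCAC, 1.54% CTGGTAC and 10.3% CAGCTG. No motif searched was matched in the windows of both Opalin and Pllp. A match is a run of letters, and occupancy was not measured. Windows were found for 8 of the 9 genes. Among those not shown, Mal and Cldn11 held 0 matches, Cnp held 1 to ACAAAG and 1 to CTGGCAC, and the windows of Mag held 0 to 2. The windows thus do not separate the genes that fell from the others.

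The other 7 genes did not pass the test under either restriction. Mbp was at 2935 to 3041 CPM in old AL, 3077 to 3138 in acute DR and 2915 to 3481 in long-term DR, with log2 fold changes of -0.017 ± 0.11 and 0.071 ± 0.10. The 95% interval of Mbp ran from -0.24 to 0.20 under acute and from -0.13 to 0.28 under long-term DR, so a change as large as that of Opalin lies outside it. Mog was at -0.040 ± 0.12 and 0.072 ± 0.11. Mag was at -0.18 ± 0.12 under acute and -0.25 ± 0.12 under long-term DR (edgeR adjusted p = 0.656 and 0.478), at 582 to 744 CPM under the latter and 701 to 877 CPM in old AL mice. The long-term DR and old AL values of Mag overlapped in CPM but not on the log2 CPM scale with TMM library sizes. The intervals of Cnp and Mal were wider: -1.13 to 0.57 and -0.74 to 0.82 under acute DR.

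Mobp lay higher in acute DR mice. It was at 813, 865 and 916 CPM in old AL mice, 1195, 1142 and 1404 in acute DR and 1145, 1015, 894 and 1068 in long-term DR mice. The acute DR mice lay above the old AL mice, without overlap. The groups were apart in one or the other direction for 18.1% of the genes tested. The log2 fold change of 0.46 ± 0.14 was not called (edgeR adjusted p = 0.0809). It was called in 8 of the 29 other fits. The fit without libraries of under 100 nuclei is the same as that without young AL replicate 1, and both are counted. Mobp was called in the fit of acute DR and old AL mice alone (0.46, edgeR adjusted p = 0.0104), where 441 of 11136 genes were called. With a term for the libraries numbered 1 it was also called (0.46, edgeR adjusted p = 0.0397), where 345 of 11368 genes were called. In the main fit 226 of 11368 genes were called. Under long-term DR the log2 fold change of Mobp was 0.23 ± 0.13 (edgeR adjusted p = 0.602).

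**Figure D4:**
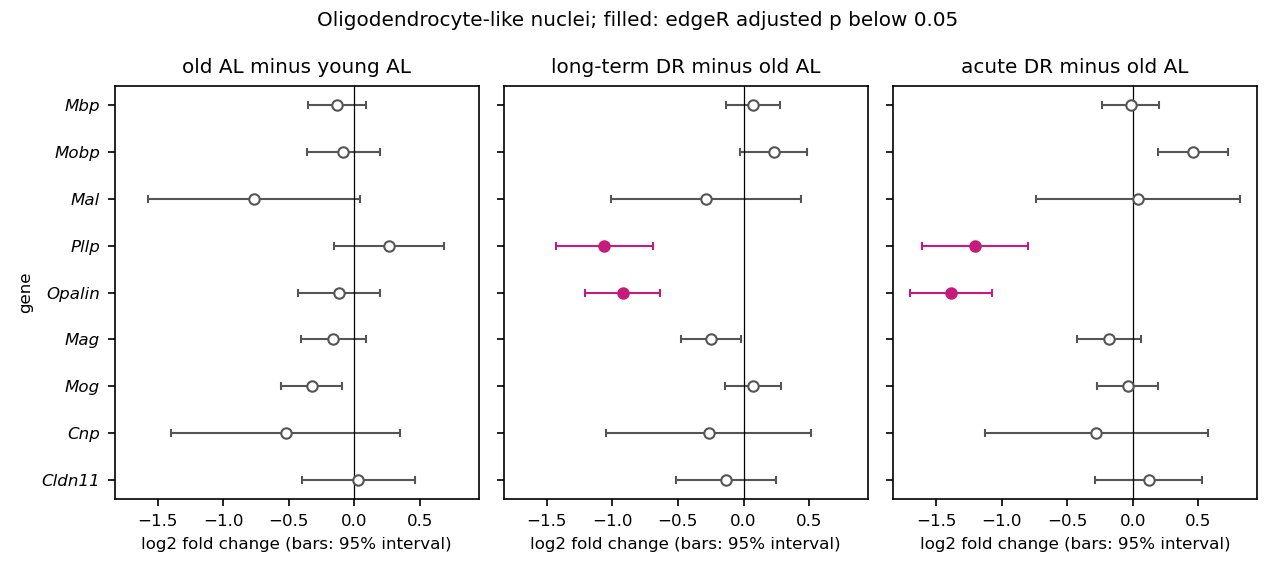
Log2 fold change (points; bars are 95% intervals) of the 9 genes in oligodendrocyte-like nuclei for ageing, long-term DR and acute DR; filled points passed an edgeR adjusted p of 0.05. Opalin and Pllp are filled in the panels of restriction, and none is filled in the panel of ageing.

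Long-term DR was also compared directly with acute DR. No gene of the 9 was called, with 0.114% of all genes called. Opalin was the furthest from 0 (0.46 ± 0.15, edgeR adjusted p = 0.421, unadjusted p = 0.0054), with a 95% interval of 0.16 to 0.77. Pllp was at 0.14 ± 0.20. A larger fall of Opalin under acute DR was thus not established after adjustment.

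Pllp was the gene with similar levels in both stages. In precursor-like nuclei it was at 84.1, 75.4 and 82.4 CPM in old AL, 73.3, 81.5 and 54.6 in acute DR and 66.0, 60.9, 79.6 and 47.3 in long-term DR mice. The groups overlapped, and edgeR gave -0.21 ± 0.21 and -0.31 ± 0.19, neither called. The difference within a mouse, log2 Pllp in oligodendrocyte-like minus precursor-like nuclei, was 0.85 ± 0.25 (SD, n = 3) in old AL, -0.021 ± 0.31 (n = 3) in acute DR and 0.18 ± 0.34 (n = 4) in long-term DR mice. This quantity was chosen after the values were seen. It was lower than in each old AL mouse in 3 of 3 and 4 of 4 restricted mice. In the young AL mice it was 0.46, 0.34 and 0.41, also below each old AL mouse. Exact two-sided permutation tests gave p = 0.1 for acute DR, the smallest that 3 against 3 allow, and p = 0.0571 for long-term DR (both 0.1 after adjustment over the 2 tests). With these numbers of mice and a quantity chosen from its values, the tests say nothing on whether the fall differs between the stages.

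**Figure D5:**
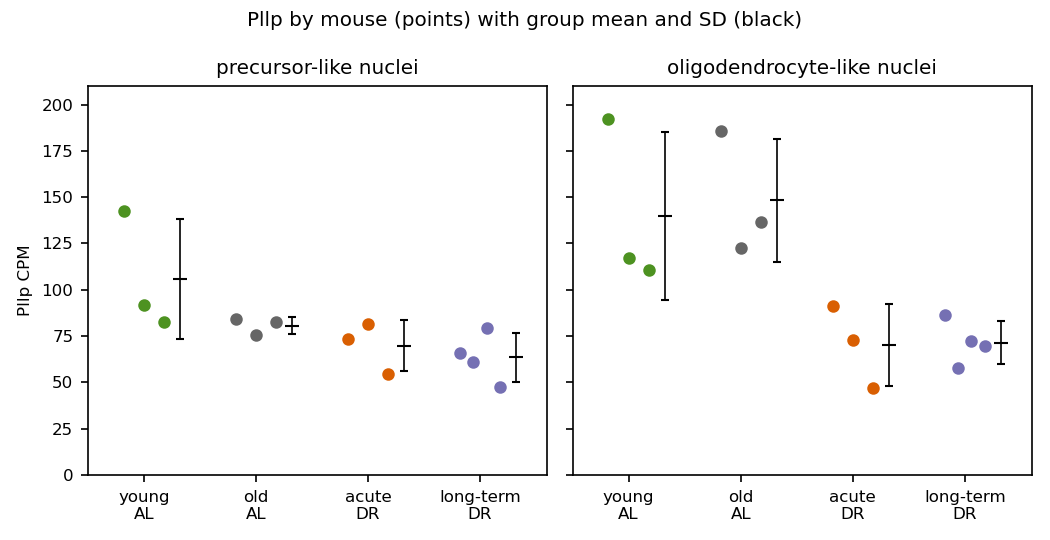
Pllp CPM per mouse (points) in precursor-like and oligodendrocyte-like nuclei by group, with mean and SD in black. In oligodendrocyte-like nuclei the 7 restricted mice lie between 46.8 and 91.0 and the old AL mice between 122 and 186, while in precursor-like nuclei the groups overlap.

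None of the 9 genes was called for ageing in oligodendrocyte-like nuclei, although 7.86% of the genes tested were called there. The 894 genes called became 8 with median UMIs per nucleus as a covariate, 122 without young AL replicate 2 and 326 without old AL replicate 2. They became 304 with the level of excitatory neuron markers as a covariate. In edgeR 1 of the 9 genes had an unadjusted p below 0.05, as did 2491 of the 11368 genes tested. It was Mog, at 1425, 1051 and 1185 CPM in young and 808, 936 and 967 CPM in old AL mice (-0.33 ± 0.12, edgeR adjusted p = 0.0925). The groups did not overlap, which held for 22.2% of the genes tested. Opalin was at 453, 296 and 331 CPM in young mice, with -0.12 ± 0.16 in old ones, and Pllp at 0.26 ± 0.21. The 95% interval for ageing of Opalin was -0.43 to 0.19, and with median UMIs per nucleus as a covariate its value was -0.36 ± 0.26 (edgeR adjusted p = 0.883). Young libraries had 1182 to 1661 UMIs per oligodendrocyte-like nucleus and old AL libraries 1988 to 3169, without overlap, so age and depth cannot be told apart.

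Libraries numbered 1 differed in a subset of these genes. In a fit with the groups and a term for number 1, Mal was higher in them by 0.83 ± 0.12 on the log2 scale (edgeR adjusted p = 0.000492), Cnp by 0.91 ± 0.15 (edgeR adjusted p = 0.00277) and Cldn11 by 0.52 ± 0.11 (edgeR adjusted p = 0.0144), with 0.537% of all genes called. In each of the 4 groups the library numbered 1 had the highest value of Mal, Cnp, Cldn11 and Pllp, the last at 0.56 ± 0.16 (edgeR adjusted p = 0.109). Mbp was at -0.057, Mag at -0.024 and Opalin at 0.091. The labels do not say what the number stands for.

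This term bears on ageing. Mal was at 1018, 400.2 and 412 CPM in young and 401, 195 and 317 CPM in old AL mice, and the first value of each is the library numbered 1. Without the term Mal was at -0.76 ± 0.41 (edgeR adjusted p = 0.328) and Cnp at -0.52 ± 0.45 (edgeR adjusted p = 0.563). With the term Mal was at -0.78 (edgeR adjusted p = 0.00117) and Cnp at -0.58 (edgeR adjusted p = 0.0404), both called. In that fit 1157 of the 11368 genes tested were called for ageing. With the 4 libraries left out Mal was at -0.69 (edgeR adjusted p = 0.0365) and Cnp at -0.53 (edgeR adjusted p = 0.214), with 902 of 11657 genes called. Mal was lower in old than young mice in these fits. With depth as a covariate Mal was at -1.25 ± 0.69 and was not called (edgeR adjusted p = 0.852), where 8 of 11368 genes were called.

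In other classes the genes were sparse, and 38 pairs of gene and class in 10 classes passed the filter. Among the 152 tests of these pairs, edgeR called 1, against 0.276% of all tests in these classes. It was Mobp in granule-like neurons, higher in old than young AL mice, a comparison with 4.31% of genes called. Its values were 0.741, 0.857 and 0.467 CPM in young and 2.43, 2.47 and 2.19 CPM in old AL mice, from 9 to 15 and 20 to 55 UMIs per library (1.94 ± 0.42, edgeR adjusted p = 0.0332). These levels lie near those of CA1-like (1.57 CPM), CA3-like (2.64) and inhibitory-like nuclei (2.17). The share of oligodendrocyte-like nuclei was 0.609% to 8.41% in young and 3.22% to 17.9% in old AL libraries, and the part of free RNA in the difference was not tested. Mog in the same neurons was at 0.29 ± 0.62.

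Mbp in granule-like neurons was at 62.0, 78.2 and 82.0 CPM in young and 87.7, 99.96 and 101 CPM in old AL mice. Its log2 fold change of 0.54 ± 0.16 was not called (edgeR adjusted p = 0.0732), but it was called with the term for number 1 (edgeR adjusted p = 0.0153) and in DESeq2 (adjusted p = 0.0333). In oligodendrocyte-like nuclei of the same mice Mbp was at -0.13 ± 0.11.

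In precursor-like nuclei Mbp was at 323, 267 and 199 CPM in young, 112, 141 and 179 in old AL, 138, 62.7 and 42.5 in acute DR and 91.2, 65.1, 55.7 and 45.8 CPM in long-term DR mice. Cnp was at 45.0, 32.2 and 25.1 CPM in young and 10.9 to 19.4 CPM in old AL mice (-1.09 ± 0.33, edgeR adjusted p = 0.0712, and -1.05 with the term for number 1, edgeR adjusted p = 0.0338). The committed stage made up 6.54% to 13.3% of precursor nuclei in young, 4.36% to 8.76% in old AL, 2.37% to 4.14% in acute DR and 0.625% to 4.95% in long-term DR mice. The precursor stage also differed between libraries. Of its 2 sub-clusters, the smaller held 192 nuclei of young AL replicate 2 and 84 of replicate 3, against 8 and 72 in the larger. The smaller held 1 nucleus of young AL replicate 1, against 147 in the larger, and 0 to 1 nuclei in each old AL library. The part of the committed share or of this split in these values was not tested. None of the 4 genes that passed the filter in precursors (Mag, Pllp, Cnp, Mbp) was called in any comparison, where 2.22% of genes were called for ageing, 0.119% under each kind of restriction and 0.0108% for long-term minus acute DR.

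Other genes of myelin were described from lists. Of 22 further myelin and membrane genes tested in oligodendrocyte-like nuclei, none was called for ageing or under long-term DR. Their median log2 fold change was -0.14 under acute and -0.07 under long-term DR. Under acute DR, Tmem88b was at -0.68 (edgeR adjusted p = 0.0511) and, in the other direction, Anln, which encodes a scaffold protein of myelin septins, was at 0.47 (edgeR adjusted p = 0.0873).

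Of 11 tested genes of myelin lipid synthesis, none was called in any comparison. The lowest p-values under acute DR belonged to Elovl7, a fatty acid elongase (-0.45, edgeR adjusted p = 0.0952), and Ugt8a, which makes galactocerebroside (-0.34, edgeR adjusted p = 0.148). Of 16 tested regulators, Zeb2, a transcription factor needed for myelination, rose with age (0.45 ± 0.12, edgeR adjusted p = 0.0182), 1 of 16 beside the 7.86% of all genes called. No regulator was called as higher with age when depth was a covariate, or without young AL replicate 1, young AL replicate 2, old AL replicate 1 or old AL replicate 2. None was called under restriction (Zeb2 at -0.40 under acute DR, edgeR adjusted p = 0.0804). Several genes of these lists, such as Ermn and Aspa, also served as markers of the oligodendrocyte class.

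Markers of other cells were present at low levels in the oligodendrocyte-like sums. The 8 excitatory neuron markers together were at 936 to 1570.5 CPM in old AL, 1248 to 1353 in acute DR, 638 to 1771 in long-term DR and 611 to 800.4 CPM in young mice, and none was called under restriction. For ageing 4 markers of other cells were called. Syt1 of the neuron list (1.42) and Gpc5 of the astrocyte list (0.98) were higher in old mice. Gja1 of the astrocyte list (-2.24) and Cx3cr1 of the microglia list (-1.64) were lower. Gpc5 was also among the leading genes of the larger precursor sub-cluster, so it is not particular to astrocytes here. With the level of the 8 neuron markers as a covariate, in a fit added after seeing the data, 304 of 11368 genes were called for ageing. Without it 894 were called. The part of astrocytes and microglia in the values for ageing was not tested. The 6 astrocyte markers together were at 261 to 498 CPM in young and 337 to 386 CPM in old AL mice, and the 5 microglia markers at 22.6 to 87.3 and 32.7 to 52.0 CPM. The 5 precursor markers together were at 74.3 to 118 CPM in old AL, 77.4 to 85.1 in acute DR and 76.1 to 90.0 CPM in long-term DR mice. Each of the 8 neuron markers was detected in each library, and of the precursor markers Pdgfra was at 0 in old AL replicate 1 and acute DR replicate 1 and Vcan in young AL replicate 1. With the neuron markers' level as a covariate Opalin and Pllp kept their calls under both kinds of restriction.

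Genes with the pattern most like the mean of the 9 over the 13 oligodendrocyte-like sums were Scd2 (Pearson r = 0.92), Stmn1 (0.90), Mid1ip1 (0.90), Prune2 (0.89) and Rplp0 (0.89). After the group means were subtracted they were Nova1 (0.95), Rab1a (0.94), Scd2 (0.93), Slc44a1 (0.93) and Apod (0.90). The 13 points share depth and the split by number 1. The members themselves followed their own mean unevenly: after subtraction r was 0.95 for Cldn11 and 0.92 for Mal, and -0.51 for Mbp and -0.13 for Mag.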

How the data were processed

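UMI counts per gene and barcode were deposited by the authors as matrices of 13 libraries, made with Cell Ranger 4.0.0 per the file headers and on mm10 per the submitters' processing notes. Whether intronic reads were counted, or doublets removed, is not given in the sources used here. Of 105759 barcodes, 105427 had 500 or more genes and no more than 5% of UMIs from mitochondrial genes and were kept, and the top Scrublet scores (0.8% per 1000 barcodes, 7386 barcodes) were removed as doublets. Nuclei were scaled to 10000 UMIs and clustered (scanpy 1.11.5, leidenalg 0.10.2, 2000 variable genes without the 9 genes, 30 components, 20 neighbours, resolution 1). Classes, written X-like, needed 3 raised markers. This named 74635 nuclei in 14 classes, and 23406 nuclei in 15 clusters stayed unnamed. A cluster of 46 barcodes led by Gpr17, a marker of committed precursors, held 43 scored doublets and was in no class.

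Counts were summed per mouse and class (at least 20 nuclei) and tested in edgeR 4.0.16 (TMM, filterByExpr, quasi-likelihood over 13 libraries, Benjamini-Hochberg over all genes of a class). CPM are UMIs per 1000000 UMIs of the sum. Log2 CPM used a prior count of 2, and the Pllp differences an added 0.5 UMIs. Each labelled sample was taken as 1 mouse; p-values measure the spread between these samples. On simulated counts for acute DR (11538 genes), 54 of 97 genes changed by 1 log2 unit and 95 of 100 changed by 2 were called.

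All 9 genes are named. Genes of related lists were named by smallest p, up to 3 per direction, and genes of like pattern by the 5 highest r. The genes, lists and tests were chosen with earlier results of these data known. Gene positions are from GENCODE vM21 and promoter windows from RefSeq (GRCm38.p6). Alternatives were another normalization (RLE), DESeq2 1.42.0, other filters, covariates and each library left out. Results for some genes of the related lists are not reported here.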

Additional observations from a re-analysis of the deposited data

How the results depend on the processing

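The number of the 9 genes called in oligodendrocyte-like nuclei was 2 under long-term DR and 2 under acute DR. Under long-term DR it was 1 with median UMIs per nucleus as a covariate and 0 in sub-cluster 5 alone, and with each library left out it was 1 to 2, the 1 being without long-term DR replicate 2. Under acute DR it was 1 with the depth covariate. With each library left out it was 2 to 3 for acute DR, 0 for ageing and 0 for long-term minus acute DR. For ageing it was 0, but 2 with the term for number 1 (Mal, Cnp), 1 with the gene length trend removed (Mbp, -0.46) and 1 without the libraries numbered 1 (Mal). Over all genes the ageing calls in these fits were, in order, 1157 of 11368, 552 of 11368 and 902 of 11657. In other classes the number of the 9 genes called was 1, but 3 with the term for number 1 and 2 in DESeq2. The share of all genes called in other classes is not given for these 2 fits. The cause of these differences in number was not tested.

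With the replicate block the number was 2 for ageing (Mal, Cnp) and 3 in other classes, and it was 3 for acute DR, with Mobp as the third. Of the 11368 genes tested in oligodendrocyte-like nuclei with the block, 1167 were called for ageing and 378 for acute DR. For other classes the share of all genes called with the block is not given. The labels do not say that the numbers pair the samples, and the criterion that every pair's deviations correlate above 0.1 was not met: it held for 9 of 16 pairs with the same number. The pairs numbered 1 were at 0.0847 to 0.179, and 7 of 13 libraries correlated best with their own number.

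Of 1026 values of single genes under alternatives, 1007 kept their side of the threshold, 5 lost a call, 14 gained one and 0 called values changed sign. The same fit is counted under both leaving out young AL replicate 1 and leaving out libraries of under 100 nuclei. Signs changed for 54 uncalled values, of at most 0.26 log2 units. These leave out ageing within single sub-clusters, where 1 young library had enough nuclei and where uncalled values moved further (Mag 0.56 and Cnp 0.55 in sub-cluster 5). Counts of all genes called in fits of all oligodendrocyte-like nuclei varied widely, for ageing from 8 to 1267, for acute DR from 36 to 441 and for long-term DR from 6 to 218. Precision is limited by depth, with 1182 to 3169 median UMIs per oligodendrocyte-like nucleus, and by 3 to 4 mice per group.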
